A study of Homo sapiens with 12 samples.

Results

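The guanylate-binding proteins GBP1, GBP2, GBP3, GBP4 and GBP5 are interferon-inducible GTPases whose genes lie side by side on chromosome 1. These 5 genes were looked up by symbol, and all 5 were found in both deposited tables, among 58735 genes listed for 786-O and 29890 listed for 5637. Gene expression was measured by RNA-seq in 12 libraries of 2 human cancer cell lines, 786-O (renal cancer) and 5637 (bladder cancer). In each line 3 libraries came from cells in which CBX7, a chromobox subunit of Polycomb repressive complex 1, was silenced (shCBX7), and 3 from sh control cells. Both arms of a line were grown in RPMI-1640 with fetal bovine serum, and no further treatment is recorded. The labels do not say how many hairpins or clones were used, and the table columns name the arms si rather than sh. The series asks what lowering CBX7 changes in each line. Values are FPKM, fragments per kilobase of gene scaled to sequencing depth. The gene length used was 8143 bases for GBP5, 6276 for GBP2 and 6127 for GBP4. The coding transcripts compared below hold 1962, 2171 and 6078 stretches of 50 bases for these genes, so the lengths are not alike in kind. Levels of different genes are therefore given as listed, and comparisons between genes depend on these lengths. The 5 genes were chosen with their shCBX7 and control values already known, so those differences are given as a description and without p-values.

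Guanylate-binding proteins belong to the dynamin superfamily of large GTPases, which bind GTP, assemble into polymers and act on membranes. Interferon gamma induces them strongly through transcription factors that include IRF1, and they are best known for coating bacteria and parasite vacuoles in the cytosol and for opening the way to caspase-4 and the inflammasomes. GBP1, GBP2 and GBP5 end in a CaaX sequence that is prenylated and anchors them to membranes, whereas GBP3 and GBP4 lack this anchor. Transcription of interferon-induced genes runs through the interferon-stimulated response element (ISRE), bound by IRF factors, and the gamma-activated site (GAS), bound by STAT factors.

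Promoter windows of 300 bases, from 250 before to 50 after the annotated start, were available from RefSeq (GRCh38.p14) for 3 of the 5 genes, GBP1, GBP3 and GBP4. Windows of GBP2 and GBP5 were not analysed here. All 3 windows held the ISRE core GAAA-NN-GAAA, searched on both strands, and the sites are shown because they are the interferon element that the genes with a window share. Each line gives 30 bases of the gene's own strand, 5′ to 3′, with the ISRE core in capitals, where it reads as its reverse complement. All 3 genes lie on the minus strand of chromosome 1.
GBP1: aacgaagtacTTTCAGTTTCatattactct
GBP3: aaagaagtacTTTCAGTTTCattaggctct
GBP4: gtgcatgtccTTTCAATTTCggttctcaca

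The GBP1 site spans chr1:89065316-89065345, the GBP3 site chr1:89022845-89022874 and the GBP4 site chr1:89198927-89198956. The core lies at positions -127 to -118 from the annotated start of GBP1 (the start base being 0), at 2 to 11 in GBP3 and at -4 to 5 in GBP4. Starts differ between annotations, and the 786-O table places the GBP1 start 152 bases further upstream, so that the core lies 25 to 34 bases inside the gene as listed there. The gap between the starts is 28 bases for GBP3 and 10 bases for GBP4. The GBP1 and GBP3 windows are identical at 25 of 30 positions, while GBP1 and GBP4, and likewise GBP3 and GBP4, are identical at 16 of 30. The ISRE core was present in 996 of 27305 promoter windows (3.65%). The GAS core TTC-NNN-GAA, which reads the same on both strands, was found in the GBP3 window, at positions -15 to -7, and in 7.88% of all windows (2152 of 27305). It is shown with its core in capitals, from chr1:89022862-89022891 on the minus strand, because it stands just upstream of the ISRE core without overlapping it.
GBP3: actgagtcacTTCCTTGAAagaagtacttt

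Neither core was found in the windows of the family members GBP6 and GBP7. A match describes letters only, and binding was not measured.

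Silencing was first checked on CBX7 itself. CBX7 was 1.01, 0.892 and 1.07 FPKM in the 786-O shCBX7 libraries and 1.63, 1.76 and 1.49 FPKM in the 786-O control libraries, which left 61.0% of the control mean (log2 change -0.40 by limma, adjusted p = 0.00364). In 5637 it was 1.86, 1.80 and 1.97 FPKM in shCBX7 libraries and 2.19, 2.17 and 2.42 FPKM in control libraries, or 83.3% (log2 change -0.18, limma adjusted p = 0.0188). That call was lost in 5637 without shCBX7 library 2 (limma adjusted p = 0.0608) or control library 3 (0.0586). Recovered reads per library came to 16384151 to 18868874 in 786-O and 17772716 to 29562485 in 5637. Libraries of an arm correlated at 0.991 to 0.993 in 786-O and 0.995 to 0.996 in 5637 on the log2(FPKM + 1) scale over tested genes. The labelled origins were checked against markers. The renal factor PAX8 was 30.1 to 30.8 FPKM in shCBX7 and 36.9 to 39.6 FPKM in control libraries of 786-O. There 5 of 11 renal tubule markers, LRP2 and UMOD among them, stayed under 0.1 FPKM. Of 12 urothelial markers 5 stayed under 0.1 FPKM in 786-O, with KRT5 listed at 0. The 12 still summed to 208.6 to 237.8 FPKM in shCBX7 and 171.2 to 210.6 FPKM in control libraries. Most of that was KRT19 (193.1 to 221.2 FPKM in shCBX7 and 162.2 to 201.4 FPKM in control libraries). In 5637 the basal keratin KRT5 was 263 to 267 FPKM in shCBX7 and 187 to 191 FPKM in control libraries, and the umbrella cell marker KRT20 was listed at 0. Whether the 3 libraries of an arm are independent cultures is not recorded, so the p-values reflect variation among libraries that could be technical in origin.

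In 786-O every one of the 5 genes was higher in all 3 shCBX7 libraries than in any control library. The arms of 786-O were apart in this way, in either direction, for 60.3% of 13220 tested genes, with shCBX7 higher for 29.2% and lower for 31.0%. In bulk RNA, fewer expressing cells and less RNA per cell cannot be told apart. GBP1, the best studied member and the one that coats bacteria first, was 46.05, 48.1 and 45.8 FPKM in shCBX7 cells and 10.5, 11.7 and 11.01 FPKM in control cells. The arms did not overlap, and the shCBX7 mean was 4.21 times the control mean. GBP2, a prenylated member that inhibits the protease furin, was 7.70, 8.24 and 7.86 FPKM in shCBX7 cells and 1.78, 1.72 and 1.80 FPKM in control cells, a ratio of 4.50. GBP5, also prenylated and known for its part in NLRP3 inflammasome assembly, was 2.36, 2.39 and 2.25 FPKM in shCBX7 cells and 0.456, 0.543 and 0.439 FPKM in control cells, a ratio of 4.87. GBP1, GBP2 and GBP5 thus had similar ratios in 786-O at very different levels, with GBP5 resting on 325 to 364 reads in shCBX7 and 59 to 81 in control libraries.

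GBP3 and GBP4, the members without a CaaX anchor, had smaller ratios in 786-O. The ratios did not group in this way in 5637, with 1.67 for GBP1, 0.93 for GBP2 and 0.94 for GBP5. There they were 1.16 for GBP3 and 0.90 for GBP4. The part of prenylation in these values was not tested. In 786-O the levels were as follows. GBP3 was 30.3, 30.7 and 28.9 FPKM in shCBX7 cells and 11.7, 14.0 and 13.3 FPKM in control cells, a ratio of 2.30. GBP4 was 5.44, 5.11 and 4.80 FPKM in shCBX7 cells and 2.72, 3.54 and 3.09 FPKM in control cells, a ratio of 1.64. The lowest shCBX7 library of GBP4 still lay above its highest control library. On the log2(FPKM + 1) scale the changes, shCBX7 minus control, were 1.98 (SE 0.052) for GBP1, 1.69 (SE 0.053) for GBP2, 1.15 (SE 0.068) for GBP3, 0.58 (SE 0.085) for GBP4 and 1.17 (SE 0.070) for GBP5. The added 1 shrinks the change of genes with low levels, so GBP5 came close to GBP3 on this scale although its ratio was larger. With a pseudocount of 0.1 the changes were 2.07 for GBP1, 2.11 for GBP2, 0.70 for GBP4 and 2.08 for GBP5. All 5 genes were called higher by limma at an adjusted p under 0.05, where 24.7% of 13220 tested genes were called higher and 51.0% in either direction. GBP5 passed the filter of a mean of 0.5 FPKM only through its shCBX7 libraries, since its control mean was 0.479 FPKM, and a gene that passes in this way has to differ. The median change of the 5 genes was 1.17, beside a median of -0.01 over all tested genes. That median is the value of GBP5. As the genes were chosen on this contrast, nothing is read from the count or from the median.

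In 5637 the 5 genes split. GBP1 was 15.9, 15.97 and 15.4 FPKM in shCBX7 cells and 9.38, 9.15 and 9.82 FPKM in control cells, 1.67 times the control mean and without overlap (log2 change 0.68, SE 0.030). GBP3 was 9.54, 10.4 and 9.36 FPKM in shCBX7 cells and 8.61, 8.08 and 8.62 FPKM in control cells, a ratio of 1.16, again without overlap (0.19, SE 0.042). GBP1 and GBP3 are also the pair with the most similar of the 3 ISRE windows shown above and, among the 5 genes, the most similar coding sequences. The part of that similarity in their values was not tested. GBP2 lay on the other side, with 31.6, 30.3 and 30.7 FPKM in shCBX7 cells and 33.9, 32.9 and 33.1 FPKM in control cells (-0.11, SE 0.023). GBP4 was likewise lower in every shCBX7 library, with 7.43, 7.54 and 7.24 FPKM in shCBX7 cells and 8.175, 8.08 and 8.30 FPKM in control cells (-0.13, SE 0.025). GBP5 was 1.81, 1.72 and 1.60 FPKM in shCBX7 cells and 1.85, 1.79 and 1.81 FPKM in control cells, and here the arms overlapped (-0.06, SE 0.043). The arms of 5637 were apart for 56.4% of tested genes, with shCBX7 higher for 30.7% and lower for 25.7%. By limma 2 genes were called higher (GBP1, GBP3) and 2 lower (GBP2, GBP4), where 24.4% of 12689 tested genes were called higher, 20.2% lower and 44.5% in either direction. The median change of the 5 genes was -0.06, again the value of GBP5, beside 0.01 over all tested genes. As in 786-O, nothing is read from the counts or from the median. The falls of GBP2 and GBP4 were to 92.7% and 90.5% of the control mean.

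**Figure D1:**
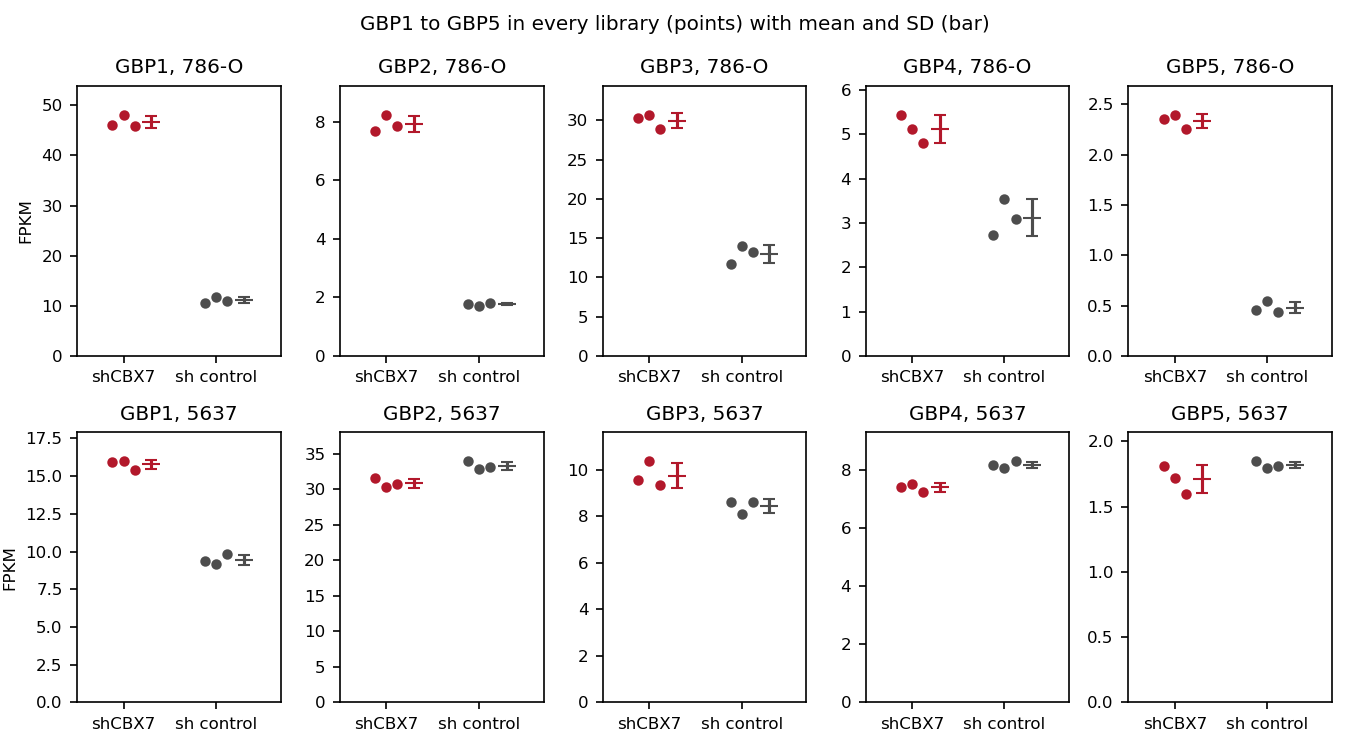
FPKM of GBP1 to GBP5 (columns) in 786-O (top) and 5637 (bottom). Points are libraries, with shCBX7 left and sh control right, and bars are the mean and SD of 3 libraries. In 786-O the arms are apart for all 5 genes, while in 5637 GBP1 and GBP3 are higher, GBP2 and GBP4 lower and GBP5 overlapping.

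As listed in FPKM, the order of the levels changed with silencing in 786-O. That order rests on the gene lengths used, 4992 bases for GBP1 and 4297 for GBP3, whose transcripts hold 2986 and 3018 stretches of 50 bases. For GBP2 and GBP4 the gap between gene and transcript lengths differs more, as given above. Whether the order also changes with transcript lengths was not tested. The change of order therefore describes the listed values only and is not read as a change in the order of transcript numbers. In shCBX7 cells the listed order was GBP1 (46.7 ± 1.24 FPKM, SD, n = 3), GBP3 (29.96 ± 0.974), GBP2 (7.93 ± 0.279), GBP4 (5.12 ± 0.320) and GBP5 (2.34 ± 0.0730 FPKM). In control cells GBP3 stood first (13.0 ± 1.17 FPKM, SD, n = 3), then GBP1 (11.1 ± 0.610), GBP4 (3.12 ± 0.414), GBP2 (1.76 ± 0.0386) and GBP5 (0.479 ± 0.0556 FPKM). No neighbours in either order overlapped between libraries, although GBP3 and GBP1 came within 0.1 FPKM in control cells, where the lowest GBP3 library was 11.74 FPKM and the highest GBP1 library 11.71 FPKM. In 5637 the order was the same in both arms, GBP2, GBP1, GBP3, GBP4 and GBP5. There GBP2 averaged 30.9 ± 0.637 FPKM in shCBX7 cells and 33.3 ± 0.565 FPKM in control cells (SD, n = 3 each). GBP3 (8.44 ± 0.310 FPKM) and GBP4 (8.19 ± 0.109 FPKM) did not differ beyond their spread in control cells of 5637, while in shCBX7 cells they stood apart.

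The summed level of the 5 genes was 92.0 ± 2.46 FPKM in shCBX7 cells and 29.5 ± 2.19 FPKM in control cells of 786-O (SD, n = 3 each). In 5637 it was 65.5 ± 1.03 FPKM in shCBX7 cells and 61.2 ± 1.09 FPKM in control cells (SD, n = 3 each). GBP1 made up 50.7 ± 0.533% of that sum in shCBX7 cells and 37.6 ± 0.847% in control cells of 786-O. GBP3 made up 32.6 ± 0.412% in shCBX7 cells and 44.2 ± 0.877% in control cells of that line. In 5637 GBP2 was the main component, with 47.1 ± 0.978% in shCBX7 cells and 54.4 ± 0.632% in control cells, against 8.62 ± 0.214% in shCBX7 cells and 6.02 ± 0.540% in control cells of 786-O (SD, n = 3 each). GBP1 made up 24.1 ± 0.144% in shCBX7 cells and 15.4 ± 0.420% in control cells of 5637. The lines have separate tables, so levels between lines are set side by side and were not tested. Sums and shares rest on the gene lengths used for FPKM and were not recomputed with transcript lengths.

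**Figure D2:**
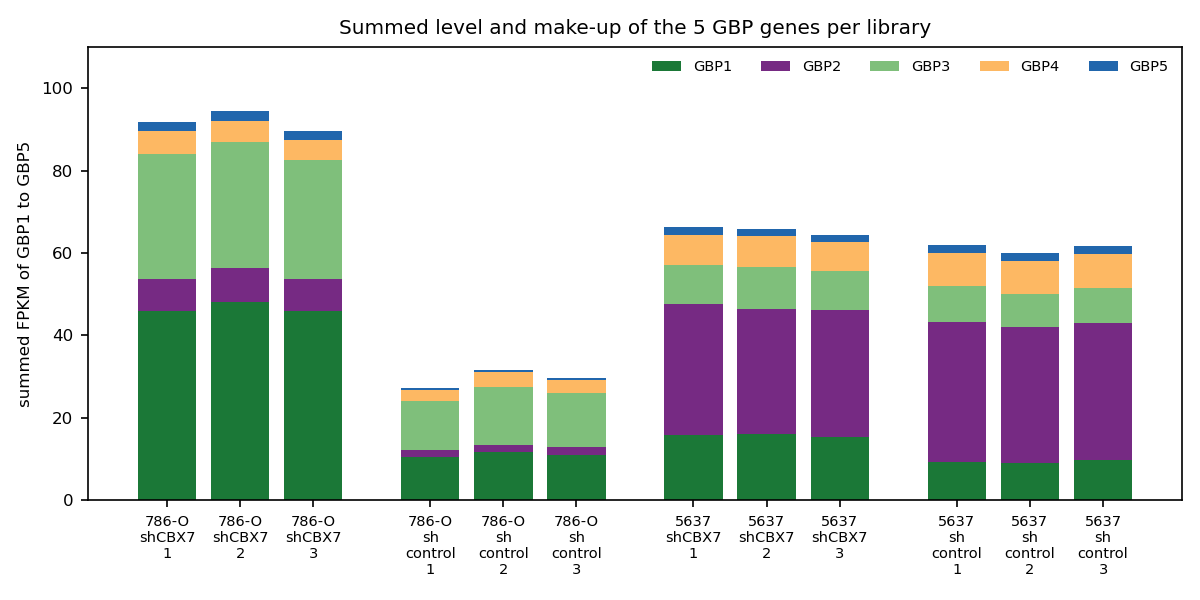
Summed FPKM of GBP1 to GBP5 in each of the 12 libraries, with colours for the genes and, within each line, shCBX7 libraries left of sh control libraries. In 786-O the sum is 89.6 to 94.5 in shCBX7 and 27.2 to 31.6 in control libraries and is mostly GBP1 and GBP3, while in 5637 GBP2 is the main component in both arms.

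The family genes outside the 5 were listed at 2.16 FPKM or less. In shCBX7 cells of 5637 GBP6 was nevertheless listed above GBP5, which was 1.60 to 1.81 FPKM there. GBP6 was 2.15, 2.16 and 2.14 FPKM in shCBX7 cells and 1.63, 1.47 and 1.21 FPKM in control cells of 5637, and this rise passed the test (log2 change 0.37, SE 0.065, limma adjusted p = 0.00373). In 786-O GBP6 rested on 2 to 19 reads in shCBX7 libraries and 2 to 3 reads in control libraries and was not tested. GBP7 had at most 1 read in 786-O libraries and 2 to 6 reads in 5637 libraries. The pseudogene GBP1P1 was 1.01, 1.30 and 0.859 FPKM in shCBX7 cells and 0.331, 0.394 and 0.180 FPKM in control cells of 786-O, on 36 to 51 and 7 to 17 reads (log2 change 0.66, SE 0.113, limma adjusted p = 0.00218). Like GBP5, it passed the filter only through its shCBX7 libraries (control mean 0.302 FPKM), so that p is no support for a difference. In 5637 it did not pass the test (0.05, SE 0.082, limma adjusted p = 0.683).

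These genes share sequence, which bears on how reads were assigned. Over the longest coding sequences of GENCODE release 29, GBP1 and GBP3 were 91.6% identical, and GBP1 and GBP2 82.4%, GBP2 and GBP3 82.9%, GBP4 and GBP7 85.5%. GBP4 and GBP5 were 66.5% identical. Of the stretches of 50 bases in the GBP1 transcript, 13.3% occur exactly in transcripts of another gene, 10.9% in GBP1P1. The share was 3.09% for GBP2, 4.14% for GBP3, 5.99% for GBP4 and 6.07% for GBP5, and 24.4% for GBP7, nearly all of it with GBP2. The values of GBP1P1 and GBP7 are therefore uncertain, and reads of GBP1 and GBP1P1 from the shared stretches cannot be told apart. The GBP2 interval overlaps that of GBP7 by 18706 bases on the same strand. The GBP5 interval overlaps an antisense gene that was listed at 0 in 786-O.

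All 5 genes are protein-coding and lie on the minus strand of chromosome 1 (GRCh38, coordinates as the 786-O table gives them). GBP3 (ENSG00000117226) runs from 89006666 to 89022894, GBP1 (ENSG00000117228) from 89052319 to 89065360 and GBP2 (ENSG00000162645) from 89106132 to 89150456. GBP4 (ENSG00000162654) runs from 89181148 to 89198932 and GBP5 (ENSG00000154451) from 89258950 to 89272804. Within 500 kb of this span, 7 genes without a GBP name were tested in 786-O. Among them GTF2B, a general transcription factor, rose (13.5, 13.5 and 12.6 FPKM in shCBX7 and 11.2, 9.95 and 10.97 FPKM in control libraries, log2 change 0.28, limma adjusted p = 0.00558). The other 6 did not pass, with PKN2, KYAT3, RBMXL1, LRRC8B, LRRC8C and PTGES3P1 between -0.10 and 0.04. In 5637, 7 genes without a GBP name were tested too, and GTF2B rose (0.10, limma adjusted p = 0.0364) and KYAT3 fell (-0.11, limma adjusted p = 0.0425). Both calls were lost in most alternatives, with limma adjusted p-values of 0.103 for GTF2B without control library 3 and 0.107 for KYAT3 without shCBX7 library 1. Over all tested genes 51.0% were called in either direction in 786-O and 44.5% in 5637. The neighbour counts were not tested against these shares.

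**Figure D3:**
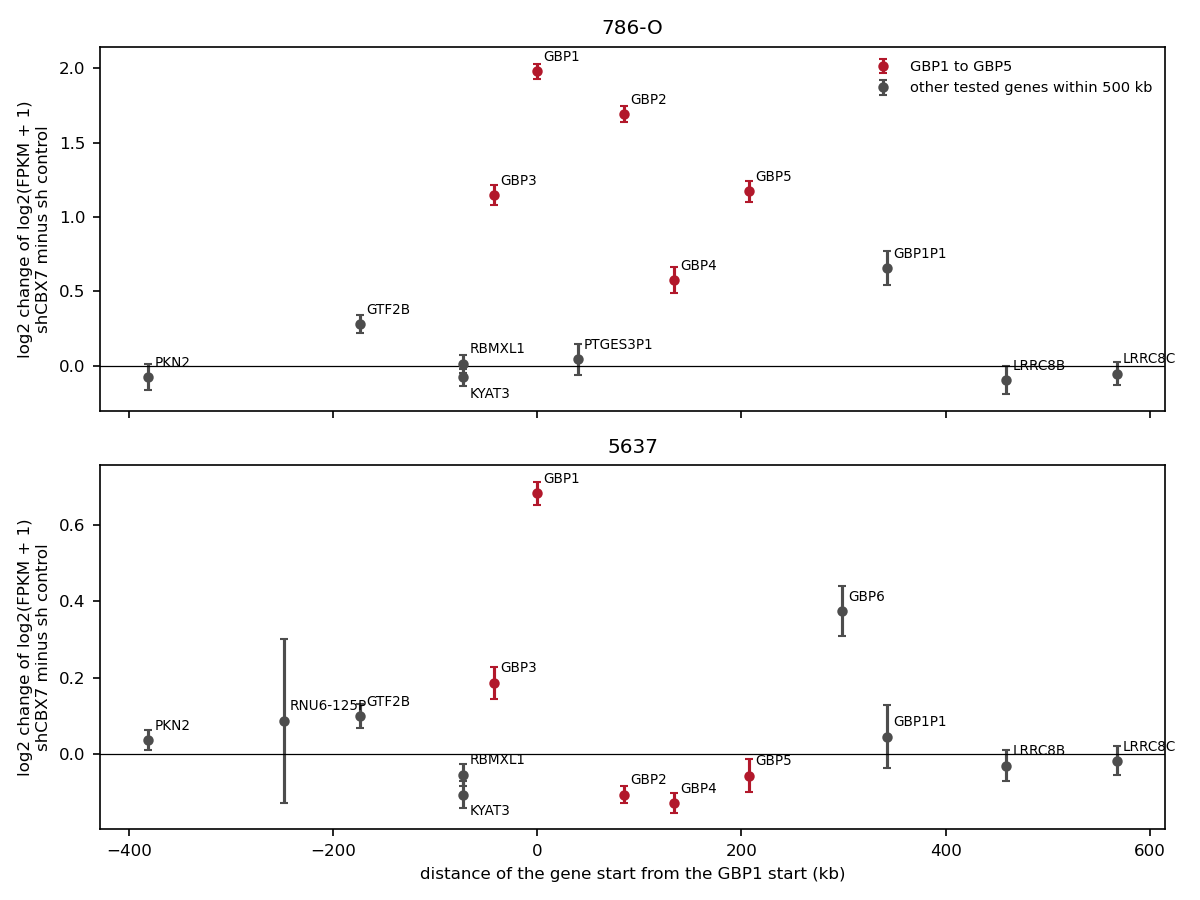
Log2 change of log2(FPKM + 1), shCBX7 minus sh control, against the distance of each gene start from that of GBP1 in kb, for GBP1 to GBP5 (red) and other tested genes within 500 kb (grey), with the SE as bars. In 786-O the GBP genes stand at 0.58 to 1.98, while the neighbours without a GBP name lie between -0.10 and 0.28.

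The genes that carry the interferon signal were examined next, on a list of 20 receptors, kinases, transcription factors and inhibitors. This list and those below were chosen with earlier results of these data known, so their counts are a description. In 786-O 10 of 20 rose and 2 fell, with a median change of 0.23, where 24.7% of all tested genes rose and 26.2% fell. IRF1, the factor that interferon gamma uses at GBP promoters, was 20.95, 19.7 and 19.3 FPKM in shCBX7 cells and 12.8, 10.9 and 12.5 FPKM in control cells (log2 change 0.69, SE 0.068, limma adjusted p = 1.48e-04). The arms did not overlap. IRF7, a factor of the type I interferon response, was 16.2, 13.95 and 12.9 FPKM in shCBX7 cells and 3.10, 2.43 and 2.79 FPKM in control cells (2.02, SE 0.097, limma adjusted p = 5.81e-06). IFNGR2, a chain of the interferon gamma receptor, was 70.3, 66.1 and 64.0 FPKM in shCBX7 cells and 37.8, 34.9 and 36.3 FPKM in control cells (0.86, SE 0.053, limma adjusted p = 1.59e-05). USP18, a feedback inhibitor of type I interferon signalling, rose as well (1.15, SE 0.104, limma adjusted p = 9.46e-05). So did the inhibitors SOCS1 (0.39, limma adjusted p = 0.00914) and SOCS3 (0.39, limma adjusted p = 0.0019) and the factor IRF2 (0.29, limma adjusted p = 0.00148).

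The genes of the list that fell were the transcription factor STAT3 (-0.18, limma adjusted p = 0.0196) and the lambda receptor IFNLR1 (-0.38, limma adjusted p = 0.00671). IFNLR1 averaged 0.479 FPKM in shCBX7 and 0.919 FPKM in control libraries and passed the filter only through the control arm, so its call is no support for a difference. STAT3 lost its call without shCBX7 library 1 (limma adjusted p = 0.0724) or control library 3 (0.0781). Of the genes that rose, the kinase JAK2 (0.24, limma adjusted p = 0.0320) lost its call without each of 5 libraries in turn and without the low-value filter. STAT2 (0.25, limma adjusted p = 0.0153) lost its call without shCBX7 library 1 (limma adjusted p = 0.057) or control library 3 (0.0549). IRF9 (0.22, limma adjusted p = 0.183) and IFNGR1 (-0.03, limma adjusted p = 0.714) did not pass.

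In 5637, 1 of the 20 rose and 7 fell, where 24.4% of all tested genes rose and 20.2% fell, with a median of -0.05. The gene that rose was the kinase JAK1 (0.07, limma adjusted p = 0.0224), a call lost in 6 of the 12 alternatives. The falls with the smallest p were IFNGR1 (60.9 to 62.2 FPKM in shCBX7 and 67.95 to 69.6 FPKM in control libraries, -0.17, limma adjusted p = 6.83e-04) and IFNAR2, a chain of the type I interferon receptor (-0.28, limma adjusted p = 0.00365). IRF2, which competes with IRF1 for its sites, and the kinase TYK2 fell too (both -0.12, limma adjusted p = 0.00413 and 0.00423). IRF1 was 21.0, 21.5 and 20.7 FPKM in shCBX7 cells and 19.9, 20.9 and 20.1 FPKM in control cells and did not pass (0.05, limma adjusted p = 0.135). Without control library 2 the number of called genes on this list was 5 instead of 8. The difference between the lines was tested as an interaction over all 12 libraries. It was called for 14 of the 20 genes, 13 with the more positive change in 786-O, where 53.3% of 12777 tested genes were called in either direction. The directions were not counted over all tested genes, so nothing is read from the 13. For IRF1 the change was 0.63 higher in 786-O than in 5637 (SE 0.075, limma adjusted p = 2.65e-05).

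Other targets of interferon gamma were counted on a list of 20 genes, also chosen with earlier results of these data known. In 786-O 12 of the 14 tested genes passed the test, each of them higher (PSMB10 and TAP2 did not pass), with a median change of 0.52, where 24.7% of all tested genes rose and 51.0% were called in either direction. CXCL11, a T cell chemokine, was 10.03, 9.93 and 10.85 FPKM in shCBX7 cells and 1.19, 0.886 and 0.985 FPKM in control cells (2.48, limma adjusted p = 7.03e-07). CD274, which encodes the checkpoint ligand PD-L1, was 32.6, 35.5 and 31.9 FPKM in shCBX7 cells and 5.85, 6.69 and 6.14 FPKM in control cells (2.25, limma adjusted p = 6.13e-07). Both had larger changes than any of the 5 GBP genes. The adhesion molecule ICAM1 (1.23, limma adjusted p = 1.74e-06), the peptide transporter subunit TAP1 (1.06, limma adjusted p = 1.50e-05) and the apolipoprotein APOL1 (0.89, limma adjusted p = 5.59e-06) rose as well. Other targets were at or near 0. CIITA, the coactivator of MHC class II genes, was 0.0694 to 0.105 FPKM in shCBX7 and 0.0722 to 0.134 FPKM in control libraries, and CXCL9, HLA-DRA and UBD were at most 0.110 FPKM in every library of 786-O.

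In 5637, 2 of the 8 tested targets passed the test, both higher, with a median of 0.06. That share is near the 24.4% of all tested genes that rose in 5637. APOL1 was 18.6, 17.2 and 18.1 FPKM in shCBX7 cells and 15.5, 16.5 and 15.6 FPKM in control cells (0.17, limma adjusted p = 0.00907). CXCL11 was 1.11, 1.11 and 0.950 FPKM in shCBX7 cells and 0.833, 0.708 and 0.723 FPKM in control cells (0.23, limma adjusted p = 0.0161), a call that was lost without shCBX7 library 2 or control library 2 or 3. Without shCBX7 library 2 or control library 2 the number of called targets was 1. CD274 (-0.06, limma adjusted p = 0.122) and ICAM1 (0.06, limma adjusted p = 0.245) did not pass. PSMB9, TAP1, TAP2 and UBD were under 0.1 FPKM in every library of this line, and HLA-DRA was listed at 0. PSMB8 was at most 0.046 FPKM in shCBX7 libraries and was 0.0679, 1.02 and 0 FPKM in control libraries. All of these genes lie between bases 29555515 and 32859585 of chromosome 6. The cause of their low values was not tested, so they are not read as a lack of response. WARS and RARRES3 were not analysed in 5637.

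**Figure D4:**
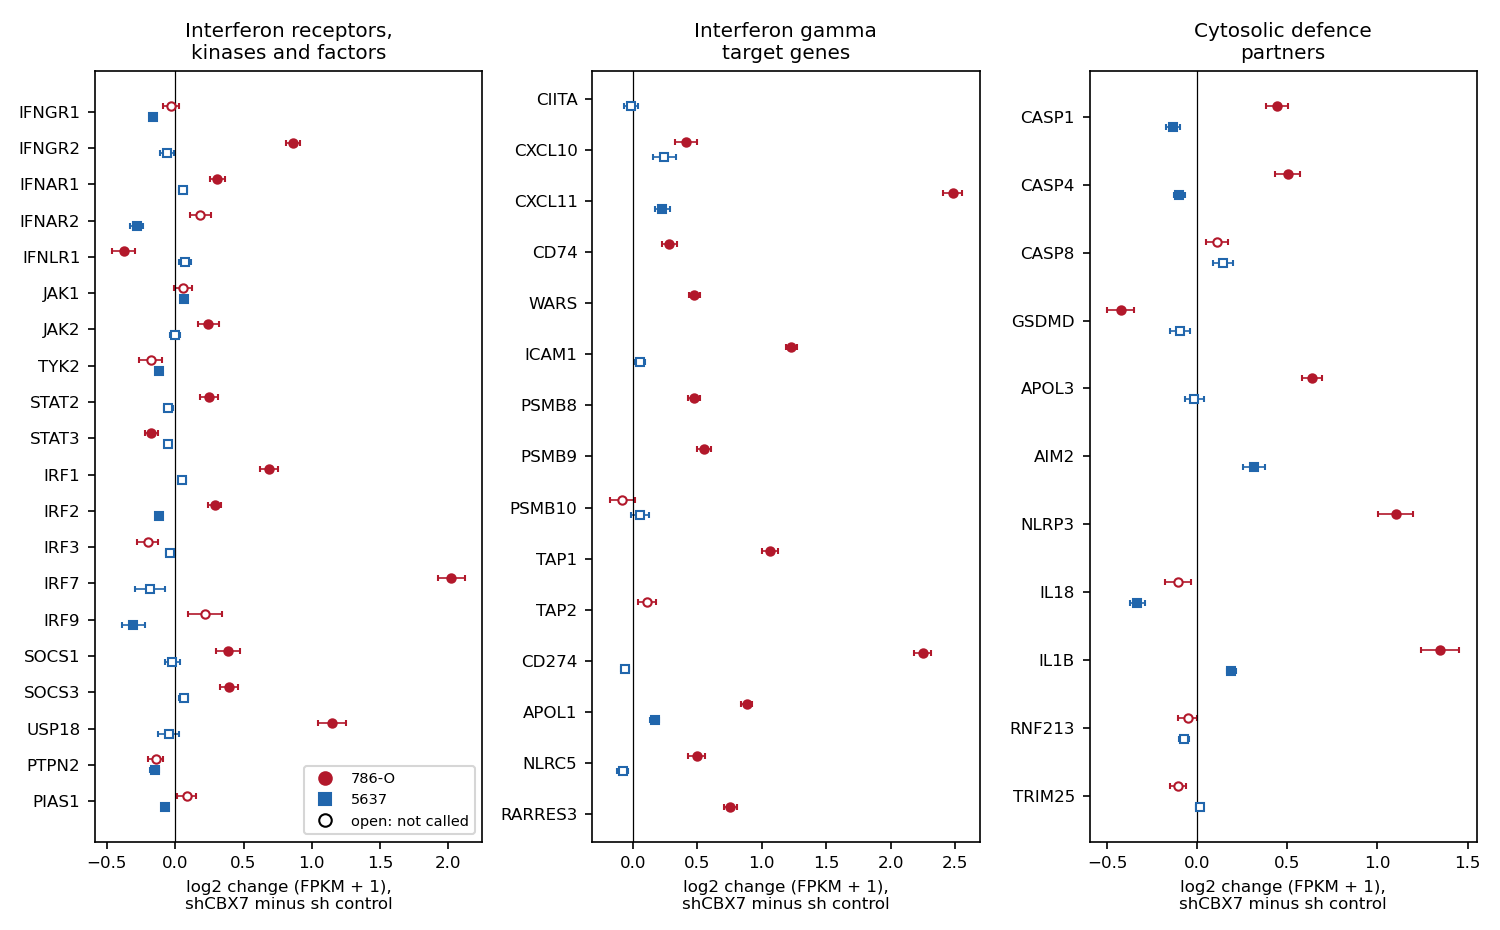
Log2 change of log2(FPKM + 1), shCBX7 minus sh control, with SE, for tested genes of 3 lists in 786-O (red circles) and 5637 (blue squares). Filled symbols passed limma's adjusted p of 0.05. Most filled circles lie right of 0, with IRF7, CXCL11 and CD274 above 2, and IFNLR1, STAT3 and GSDMD lie left of it in 786-O.

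Partners of the GBP proteins were counted on 2 further lists. Among 8 genes of protein prenylation, the furin protease and the kinase PIM1, which controls GBP1 in human cells, 3 rose and 2 fell in 786-O, and 2 rose and 2 fell in 5637. These shares are near those of all tested genes, of which 51.0% were called in 786-O and 44.5% in 5637. FURIN, the protease that GBP2 and GBP5 inhibit, was 31.3, 30.3 and 31.5 FPKM in shCBX7 cells and 21.0, 18.0 and 19.4 FPKM in control cells of 786-O (0.65, limma adjusted p = 1.18e-04). RCE1, the protease that trims CaaX proteins after prenylation, was 13.8, 11.9 and 11.3 FPKM in shCBX7 cells and 27.1, 21.9 and 23.0 FPKM in control cells of 786-O (-0.90, limma adjusted p = 2.05e-04). ZMPSTE24, another CaaX protease, fell in 786-O (-0.49, limma adjusted p = 8.61e-04) and rose in 5637 (0.38, limma adjusted p = 1.47e-04), and the lines differed (-0.87, SE 0.077, limma interaction adjusted p = 2.60e-06). PIM1 fell in 5637 (79 to 82 FPKM in shCBX7 and 110 to 116 FPKM in control libraries, -0.49, limma adjusted p = 3.71e-05). Of the prenyltransferase subunit genes, FNTA rose in 786-O (0.23, limma adjusted p = 0.0385), a call lost in 6 alternatives with adjusted p up to 0.121, and FNTB and PGGT1B did not pass in either line.

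Of the 14 genes that act with GBP proteins in cytosolic defence, 10 were tested in each line, and 5 rose and 1 fell in 786-O, with a median of 0.28, where 24.7% of all tested genes rose and 26.2% fell. CASP4, the caspase that GBP1 brings to bacteria, was 11.2, 10.8 and 10.2 FPKM in shCBX7 cells and 6.68, 7.38 and 7.89 FPKM in control cells (0.50, SE 0.068, limma adjusted p = 6.74e-04). The inflammasome sensor NLRP3 (1.10, limma adjusted p = 8.26e-05), the membrane-lysing APOL3 (0.64, limma adjusted p = 8.68e-05), IL1B (1.35, limma adjusted p = 4.56e-05) and CASP1 (0.44, limma adjusted p = 7.62e-04) rose as well. IL1B passed the filter only through its shCBX7 libraries (2.72 FPKM on average, against 0.452 FPKM in control libraries), so its call is no support for a difference. GSDMD, the pore-forming target of these caspases, was 12.9, 13.2 and 13.4 FPKM in shCBX7 cells and 20.2, 16.4 and 17.8 FPKM in control cells (-0.43, limma adjusted p = 0.00225). PYCARD, the adaptor that joins sensors to CASP1, was under 0.04 FPKM in every 786-O library. In 5637, 2 rose (AIM2, 0.32, and IL1B, 0.19, limma adjusted p = 0.00587 and 0.00115) and 3 fell, where 24.4% of all tested genes rose and 20.2% fell. IL18 was 9.33, 9.54 and 10.3 FPKM in shCBX7 cells and 12.3, 12.05 and 13.1 FPKM in control cells of 5637 (-0.33, limma adjusted p = 0.00110). CASP1 and CASP4 were the other falls, and without shCBX7 library 2 or 3 the number of called genes was 3 instead of 5.

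The genes most like the 5 were found by the distance between log2(FPKM + 1) profiles over the 12 libraries, each gene centred within its line, among 10349 genes. Nearest to the mean of the 5 (whose profile has a length of 1.62) were SH3RF2 at a distance of 0.136, PARP9 at 0.163, RND3 at 0.164, PDLIM5 at 0.167 and TFPI2 at 0.192. PARP9 is itself interferon-inducible, and its level was 8.61, 9.01 and 8.995 FPKM in shCBX7 cells and 2.96, 3.58 and 2.95 FPKM in control cells of 786-O. Nearest to GBP1 was PDCD1LG2, the gene of the checkpoint ligand PD-L2, at 0.297. It was 43.9, 44.7 and 41.0 FPKM in shCBX7 cells and 9.75, 10.6 and 11.35 FPKM in control cells of 786-O, and 2.29, 2.55 and 2.26 FPKM in shCBX7 cells and 1.46, 1.32 and 1.22 FPKM in control cells of 5637. Nearest to GBP2 was IFIT3, an interferon-induced antiviral gene, at 0.180. The nearest to GBP3, GBP4 and GBP5 were INHBA (0.179), FAM81A (0.155) and ARID3B (0.180). These distances describe the libraries and were not tested.

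Leukocytes and endothelium express GBP genes strongly, so their markers were looked at in the same libraries. The pan-leukocyte gene PTPRC and the T cell gene CD3E were listed at 0 in every 786-O library, and CD68 was at most 0.0274 FPKM. The summed level of 10 leukocyte markers was 9.841 to 11 FPKM in shCBX7 and 17.9 to 22.3 FPKM in control libraries of 786-O, most of it LAPTM5, which fell (-1.03, limma adjusted p = 4.03e-05). In 5637 the sum was 54.0 to 54.6 FPKM in shCBX7 and 56.9 to 58.9 FPKM in control libraries, with PTPRC at most 0.0121 FPKM and CD3E listed at 0. Most of it was LAPTM5, which fell to 37.5 from 43.5 FPKM on average (-0.21, limma adjusted p = 4.32e-04). CORO1A made up much of the rest and rose to 14.9 from 12.3 FPKM (0.26, limma adjusted p = 3.64e-04). The endothelial gene CDH5 was listed at 0 in 786-O and was at most 0.0171 FPKM in 5637. The sum of 7 endothelial markers was 0.766 to 1.04 FPKM in shCBX7 and 0.540 to 0.723 FPKM in control libraries of 786-O. In 5637 it was 1.53 to 1.65 FPKM in shCBX7 and 1.89 to 2.37 FPKM in control libraries. The part of these markers in the GBP values was not tested.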

How the data were processed

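RNA was sequenced from 3 shCBX7 and 3 sh control libraries of each line, using a directional kit per the labels. The authors deposited a table of FPKM values for each line, per the file headers. Aligner, counter and strand setting were not given. The submitters' processing notes name a mouse build for these human samples, but 99.9% of the 786-O table's identifiers found in GENCODE 29 (GRCh38), or 58594 of 58676, carry its coordinates. Titles of 2 of the 5637 controls bear another number, against a cell line label of 5637, and the numbers in the control columns cannot be tied to titles, so library numbers there are the table's. No column (0) lacked a group, and 0 of 15 library pairs per line were identical. Whole reads (tolerance 0.01) could be recovered from FPKM and gene length for 100% of genes in 786-O and 94.95 to 95.21% in 5637, which gave the depth.

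On log2(FPKM + 1), which understates changes of low genes, all genes averaging 0.5 FPKM or more in a fit were tested by limma 3.58.1 (R 4.3.3) with a mean-variance trend and Benjamini-Hochberg adjustment at 0.05. The lines were compared by an interaction over 12 libraries. The code was first tested on simulated data. Alternatives were a pseudocount of 0.1, no filter, quantile normalization, median centring, no trend, each library left out and, in 786-O, the replicate number as a block. Limma's voom on recovered reads was added after seeing the data. Identity came from Biopython 1.88 alignments, and protein sequences were not analysed here.

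The 5 genes and all lists were chosen with earlier results of these data known. Named are the 5, CBX7, up to 4 genes per list and line with the smallest p, neighbours within 500 kb and the nearest profiles. A gene of the interferon signalling list is not reported here and was left out of that list's counts. Further list genes were named after their values were seen.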

Additional observations from a re-analysis of the deposited data

Results flagged for a closer look

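For GBP2 and GBP4 the 2 lines moved in opposite directions in every library, and the difference between the lines was not tested for these genes. The log2 change of GBP2 was 1.80 higher in 786-O (1.69) than in 5637 (-0.11), and that of GBP4 was 0.70 higher (0.58 in 786-O and -0.13 in 5637).

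Among the interferon receptors, kinases and transcription factors, the change in 786-O minus the change in 5637 passed limma's interaction test for 14 genes. It was 2.21 for IRF7, 1.19 for USP18, 0.92 for IFNGR2, 0.63 for IRF1, 0.53 for IRF9, 0.47 for IFNAR2, 0.41 for IRF2 and 0.41 for SOCS1. Smaller values were 0.33 for SOCS3, 0.30 for STAT2, 0.25 for IFNAR1, 0.24 for JAK2 and 0.16 for PIAS1. It was negative for IFNLR1 (-0.45), which passed the filter in 786-O through its control arm alone.

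Other genes described in both lines also passed the interaction test. The difference, again 786-O minus 5637, was 2.31 for CD274, 2.25 for CXCL11, 1.17 for ICAM1, 1.16 for IL1B, 0.72 for APOL1, 0.61 for GBP1P1, 0.60 for CASP4, 0.58 for CASP1 and 0.18 for GTF2B. It was -1.13 for ATL3, -0.87 for ZMPSTE24 and -0.22 for CBX7 itself. GBP1P1 and IL1B reached the filter in 786-O through their shCBX7 libraries alone.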

How the results depend on the processing

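All 125 recomputed changes of the 5 genes (13 alternatives in 786-O and 12 in 5637) kept their sign. Most of these signs could not have changed. Dropping the filter or the trend, or adding the block, leaves the change itself as it was. Where the arms do not overlap, another pseudocount or a library left out cannot reverse it. The count of kept signs is therefore no support for the changes. The median change of the 5 genes in 786-O was 2.07 with a pseudocount of 0.1 and 2.08 with voom on recovered reads, both of which shrink low values less, and in 5637 it was -0.10 with voom. Leaving out 1 library gave medians of 1.16 to 1.20 in 786-O and -0.08 to -0.03 in 5637. In 5637 leaving out 1 library gave 5 to 8 called genes among receptors, kinases and factors, 1 to 2 among interferon gamma targets and 3 to 5 among the defence partners. In 786-O it gave 9 to 13 among receptors, kinases and factors, 12 among interferon gamma targets and 6 among the defence partners. The cause was not tested. Over all genes, the count of calls with 1 library left out was 5704 to 6734 in 786-O and 4678 to 5123 in 5637. The replicate number as a block in 786-O gave 6723 called genes beside 6736. Same-numbered libraries had deviations correlated at 0.083, 0.077 and 0.057, each the highest for its library, beside -0.076 to 0.006 for the other pairs. All these values are small. Whether same-numbered libraries share more than a number was not tested. No paired analysis was possible in 5637 because the titles of its controls all end in the same replicate number, and the numbers in the table's control columns cannot be tied to them. GBP5 in 786-O control cells (59 to 81 reads) is where depth limits precision most among the 5.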

Other observations

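Relatives of the GBP genes in the dynamin superfamily showed no common direction. In 786-O 3 of 13 tested genes rose and 6 fell, and in 5637 6 of 15 rose and 4 fell, where 24.7% of all tested genes rose and 26.2% fell in 786-O and 24.4% rose and 20.2% fell in 5637. MX2, an interferon-induced restriction factor, was 4.29, 4.41 and 4.47 FPKM in shCBX7 cells and 0.822, 0.853 and 0.799 FPKM in control cells of 786-O (log2 change 1.56, limma adjusted p = 1.91e-06). Its paralogue MX1 stayed at 0.237 to 0.318 FPKM in shCBX7 and 0.188 to 0.272 FPKM in control libraries of 786-O and was not tested. ATL3, an atlastin that shapes the endoplasmic reticulum, was 3.34, 3.02 and 3.52 FPKM in shCBX7 cells and 9.82, 9.65 and 10.2 FPKM in control cells of 786-O (-1.35, limma adjusted p = 4.44e-06). It fell in 5637 as well (7.97, 7.82 and 7.73 FPKM in shCBX7 cells and 9.39, 9.33 and 9.11 FPKM in control cells, -0.22, limma adjusted p = 6.00e-04).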
